A study of Homo sapiens with 12 samples.

Results

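The nuclear-encoded subunits of the mitochondrial respiratory chain and ATP synthase were examined in HK-2, a human kidney line immortalised out of proximal tubule epithelium. Members were taken by name: every probe set that the platform annotation pairs with 1 gene symbol, where that symbol begins with NDUFA, NDUFB, NDUFC, NDUFS or NDUFV and a digit, is an SDHA to SDHD symbol, begins with UQCR or ATP5, or begins with COX4, COX5, COX6, COX7 or COX8. The name rule found 152 of the 54675 probe sets on the array, 150 of them for 76 subunit genes and 2 for the pseudogenes ATP5MC2P1 and COX6A1P1, which were set aside. Values were measured on 12 arrays, 3 in each of 4 groups: cells given a low dose of Ota for 72 h, control cells at 72 h, cells given the same dose for 24 h, and control cells at 24 h. Control cells received the vehicle, and all 4 groups grew in medium supplemented with EGF, hydrocortisone, insulin and transferrin and were exposed when nearly confluent. No concentration is stated, and the name Ota is not written out in the labels; ochratoxin A, a mould toxin harmful to kidneys, is commonly shortened to OTA. The 3 arrays per group are labelled as biological replicates, with no word on what the cultures shared, so a p-value here reflects the spread of these arrays.

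The respiratory chain passes electrons to oxygen in the inner mitochondrial membrane and pumps protons as it does so. Complex I takes electrons from NADH, complex II from succinate, complex III hands them from ubiquinol to cytochrome c, complex IV passes them to oxygen, and complex V, the ATP synthase, makes ATP as protons flow back. Proximal tubule cells reabsorb solutes with energy that comes mainly from this pathway. Most subunits are encoded in the nucleus, while a core set in complexes I, III, IV and V is encoded in mitochondrial DNA.

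A pair of transcription factors is classically linked to promoters of these genes, nuclear respiratory factor 1 (NRF1) and the ETS-family factor GABP. Their core letters were searched in the 250 bases upstream of the annotated start on both strands, GCGC, then any 1 base, then TGCGC for NRF1, and CCGGAAG for ETS factors; matches of the different motifs overlapped in 0 members. RefSeq promoters on GRCh38.p14 were matched for 65 of the 76 members. The NRF1 letters were in 14 of the 65, or 21.5%, against 5.53% of 27305 promoters of all genes. The ETS letters were in 15 of the 65, or 23.1%, against 8.82% of all promoters. Of the members called lower in control cells between the times, as described further on, 33 had a promoter, and 12 of them (36.4%) held the ETS letters and 8 (24.2%) the NRF1 letters. Of the 29 tested members whose change did not pass as a fall, 3 (10.3%) held the ETS letters and 5 (17.2%) the NRF1 letters. These are descriptions of letters in a window and were not tested.

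The promoters of 6 members are shown because the results turn on those genes or because they carry the letters, each 5′ to 3′ on the gene's strand, which is the plus strand for all 6, with the motif letters in capitals. SDHA (chr5:218070-218319) holds the NRF1 letters 4 times, and NDUFA9 (chr12:4648864-4649113) holds them once. NDUFS3 (chr11:47578824-47579073) holds the ETS letters on both strands, and COX6B1 (chr19:35648073-35648322) holds them on the minus strand. ATP5MC1 (chr17:48892537-48892786), the member with the largest fall in control cells, and NDUFB10 (chr16:1959288-1959537), lower with Ota at both times, hold neither in this window.
SDHA: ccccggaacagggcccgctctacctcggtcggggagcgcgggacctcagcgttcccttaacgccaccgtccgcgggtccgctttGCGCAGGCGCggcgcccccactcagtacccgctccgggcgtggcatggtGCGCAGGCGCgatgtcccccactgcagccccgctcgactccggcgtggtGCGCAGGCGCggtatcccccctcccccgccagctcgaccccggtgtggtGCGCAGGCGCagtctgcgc
NDUFA9: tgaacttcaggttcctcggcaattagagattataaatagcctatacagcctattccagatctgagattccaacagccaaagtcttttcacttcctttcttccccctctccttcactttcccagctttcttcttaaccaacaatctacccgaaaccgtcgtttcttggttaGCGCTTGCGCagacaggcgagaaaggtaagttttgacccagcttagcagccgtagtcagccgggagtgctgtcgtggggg
NDUFS3: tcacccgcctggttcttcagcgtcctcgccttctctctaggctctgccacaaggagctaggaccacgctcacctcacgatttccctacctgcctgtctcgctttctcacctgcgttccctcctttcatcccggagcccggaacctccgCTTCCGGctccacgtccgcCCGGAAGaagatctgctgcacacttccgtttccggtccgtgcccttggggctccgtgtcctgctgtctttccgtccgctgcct
COX6B1: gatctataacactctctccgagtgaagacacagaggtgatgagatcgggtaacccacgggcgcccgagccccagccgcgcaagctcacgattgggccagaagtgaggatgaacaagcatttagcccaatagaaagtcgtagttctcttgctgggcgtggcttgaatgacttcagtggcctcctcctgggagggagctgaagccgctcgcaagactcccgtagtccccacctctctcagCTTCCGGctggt
ATP5MC1: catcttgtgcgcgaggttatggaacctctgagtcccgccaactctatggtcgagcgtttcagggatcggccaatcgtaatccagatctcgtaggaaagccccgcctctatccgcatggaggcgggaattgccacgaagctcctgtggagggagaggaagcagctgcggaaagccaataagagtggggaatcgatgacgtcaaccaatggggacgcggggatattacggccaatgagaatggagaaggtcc
NDUFB10: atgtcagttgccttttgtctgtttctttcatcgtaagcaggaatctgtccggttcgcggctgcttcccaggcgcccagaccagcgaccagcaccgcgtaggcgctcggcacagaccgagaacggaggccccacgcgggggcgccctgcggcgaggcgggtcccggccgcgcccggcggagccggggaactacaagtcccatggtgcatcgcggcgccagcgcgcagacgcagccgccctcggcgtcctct

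The brightest probe set, by its mean of all arrays, stood for each gene, and 70 of the 76 genes passed a detection filter, which asked for log2 values over 4 on 3 or more arrays. The tested members were all 32 of complex I, all 3 of complex II, all 6 of complex III, 12 of 17 in complex IV and 17 of 18 in complex V. The 6 below the filter were COX4I2, COX6B2, COX7A1, COX7B2 and COX8C, isoforms known from lung, testis or muscle, and ATP5MF, a membrane subunit of ATP synthase whose only probe set averaged near the floor. The mean log2 values of the tested members lay between 6.18 and 14.05. A gene was called where limma's adjusted p, over all 10699 genes tested, was below 0.05. Arrays of 1 group correlated between 0.986 and 0.994 over the 10699 genes tested. Of the 12 proximal tubule markers on the array, 2 were above the filter, the amino acid transporter subunit SLC3A1 and the transcription factor PAX8, while LRP2, CUBN, SLC34A1, SLC22A6 and AQP1 sat near the floor in every group. No leukocyte or endothelial marker of 7 passed the filter. Of 6 fibroblast markers, COL1A1, DCN and LUM passed and COL1A2, COL3A1 and PDGFRA sat near the floor.

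In control cells the respiratory chain transcripts were broadly lower at 72 h than at 24 h. Of 70 members tested, 38 (54.3%) fell and 1 rose, where 23.6% of all genes tested fell and 22.7% rose. The median change of the members was -0.31 on the log2 scale, against -0.00 for all genes tested, and 61 of the 70 changes were below 0. Falls that passed were found in every complex: 17 of 32 members of complex I, 2 of 3 of complex II, 3 of 6 of complex III, 6 of 12 of complex IV and 10 of 17 of complex V. The median change was -0.31 in complex I, -0.54 in complex II, -0.29 in complex III, -0.21 in complex IV and -0.30 in complex V. These medians depended on the probe sets. In 1 alternative the cross-matching kinds were dropped where the gene had another kind, and genes with only cross-matching kinds kept them. The medians were then -0.20 in complex I, -0.05 in complex II, 0.03 in complex III and -0.11 in complex IV. With the mean of the probe sets of a gene, the median of complex III was -0.10.

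In Ota cells fewer members fell between the times. The count was 13 of 70 lower (18.6%) and 1 higher, where 9.99% of all genes tested fell and 22.2% rose, and the median change was -0.12, against 0.08 for all genes tested. The total of 14 became 9 without Ota replicate 2 at 24 h and 8 without Ota replicate 3 at 72 h. All 13 had also fallen in control cells, which is 100% of the Ota list and 34.2% of the control list, where the overlap over all genes tested was 70.2% of the Ota list and 29.7% of the control list, and the control and Ota changes share no arrays. Across the 70 members the changes in Ota and in control cells correlated with r = 0.68, against 0.59 across all 10699 genes tested, given as a description, since the members share their arrays. The count in Ota cells depends on how the arrays are scaled: after every array had been shifted to the same median, 34 members fell and 1 rose in Ota cells, against 36 and 3 in control cells. Under that shift 18.7% of all genes tested fell and 15.5% rose in Ota cells, against 23.4% and 23.7% in control cells. That shift lowered the median change of all genes in Ota cells by 0.13 and moved it little in control cells, by 0.01. By complex, 7 members fell in complex I, 0 in complex II, 1 in complex III, 1 in complex IV and 4 in complex V of Ota cells.

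**Figure D1:**
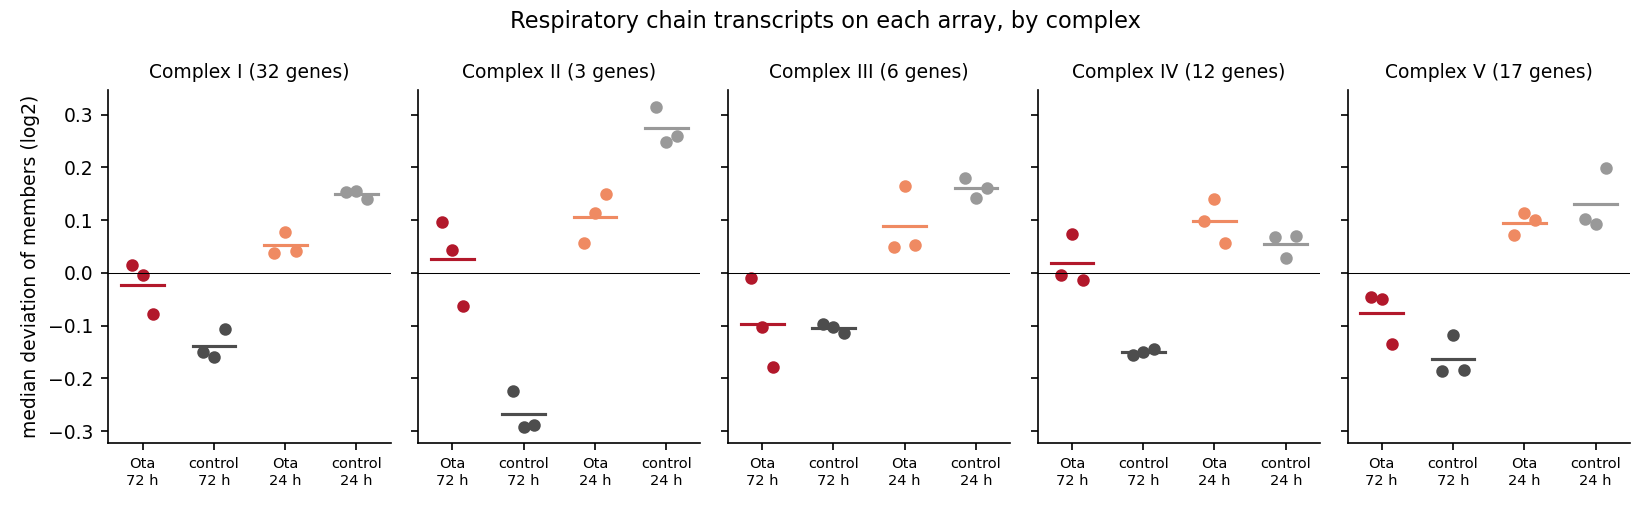
Median deviation of the tested members of each complex from their own mean over the 12 arrays (log2, vertical axis), 1 point per array, with bars for the group means, for Ota at 72 h, control at 72 h, Ota at 24 h and control at 24 h. In each complex the 3 control arrays at 72 h lie below the 3 control arrays at 24 h; in complex I they lie between -0.16 and -0.11, against 0.14 to 0.16 at 24 h.

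**Figure D2:**
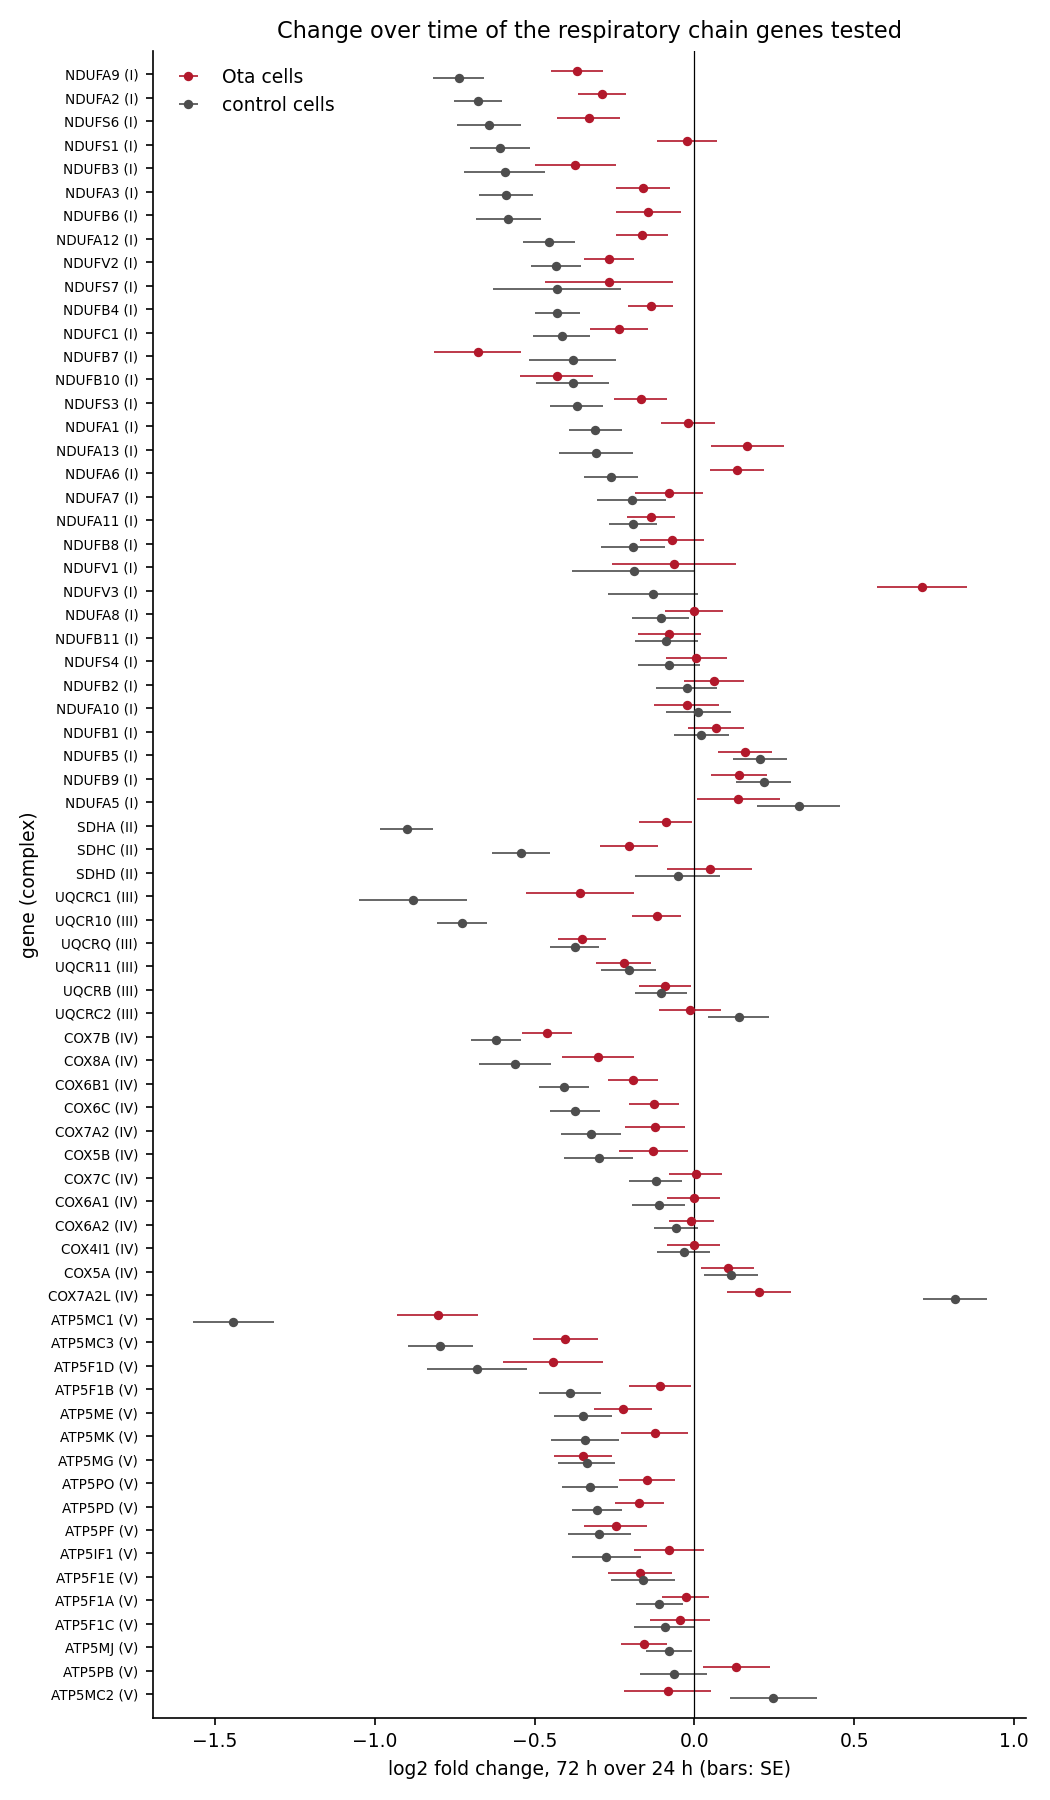
Log2 fold change at 72 h over 24 h of each tested member (horizontal axis, bars are the SE of the fit), in Ota cells and in control cells, with genes down the page grouped by complex. Most control points lie left of 0, ATP5MC1 farthest at -1.44, and COX7A2L lies right of 0 at 0.81.

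Fibroblast markers and a measure of RNA quality were read over the same times. The 3 fibroblast markers that could be tested were all lower in control cells at 72 h than at 24 h, with log2 changes of -1.01 for COL1A1, -1.74 for DCN and -1.81 for LUM, and none of the 3 passed in Ota cells. The median level of the 6-gene list was 5.34 in Ota cells and 5.23 in control cells at 72 h, and 5.49 in Ota cells and 5.73 in control cells at 24 h. The actin control probe sets near the 3′ end exceeded those near the 5′ end (log2) by 1.28 ± 0.08 in Ota cells and 1.18 ± 0.17 in control cells at 72 h, and 1.17 ± 0.12 in Ota cells and 1.01 ± 0.21 in control cells at 24 h (SD, n = 3 each). Their part in the respiratory chain changes was not tested. In bulk RNA, fewer cells of a type and less RNA per cell cannot be told apart.

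The response to Ota was read against a moving baseline, and each Ota comparison shares its control arrays with the control time course. At 24 h few members passed: 1 of 70 was higher (1.43%) and 6 were lower (8.57%), both below the 9.44% and 21.6% of all genes tested. The total of 7 became 12 without control replicate 3, 4 without Ota replicate 1 or control replicate 1, and 3 without Ota replicate 2. The median difference was -0.03, against -0.06 for all genes tested. Arrays did not overlap for 7 members above and 16 below control, or 10% and 22.9%, against 15.4% and 27.3% in the whole set of genes. The sign of the small shift follows the scaling: after that shift 9 members were higher and 3 lower, where 17.6% of all genes tested were higher and 15.8% lower, while the all-gene median moved up by 0.12. At 72 h, 14 members were higher (20%) and 2 lower (2.86%), where 17.1% of all genes tested were higher and 14.9% lower. The share of higher members was near the background, and the share of lower members below it. The median difference was 0.11, against 0.01 for all genes, and arrays did not overlap for 30 members above (42.9%) and 10 below control (14.3%), against 26% and 25.3% of all genes. Of the 20 members called at 24 h or at 72 h, NDUFB10 was lower at both times, NDUFV2 was higher at both, and SDHA was lower at 24 h and higher at 72 h. The fibroblast markers also differed at 72 h: LUM was higher with Ota by 1.68 (adjusted p = 0.000391) and DCN by 1.09 (adjusted p = 0.0141), while COL1A1 had a difference of 0.23 that did not pass (adjusted p = 0.454). None of the 3 passed at 24 h, LUM passed in the difference of the responses (1.40, adjusted p = 0.0144), and their part in the member differences was not tested.

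The difference of the responses, 72 h minus 24 h, is the same contrast as the difference between the time courses of Ota and control cells, and it was tested directly. It was positive and passed for 9 members (12.9%), negative and passed for 1 (1.43%), where 15.5% and 5.79% of all genes passed. The median was 0.15, against 0.09 for all genes tested, and 56 of 70 members were above 0, beside 6232 of the 10699 genes. The 9 were NDUFA2, NDUFA3, NDUFA6, NDUFA9, NDUFS1 and NDUFV3 of complex I, SDHA of complex II, UQCR10 of complex III and ATP5MC1 of complex V, and the member with the negative difference was COX7A2L. The total of 10 became 6 without Ota replicate 1 at either time or without control replicate 3 at 72 h. After the array shift 4 positive differences and 1 negative one passed, where 10.9% and 11.1% of all genes passed.

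**Figure D3:**
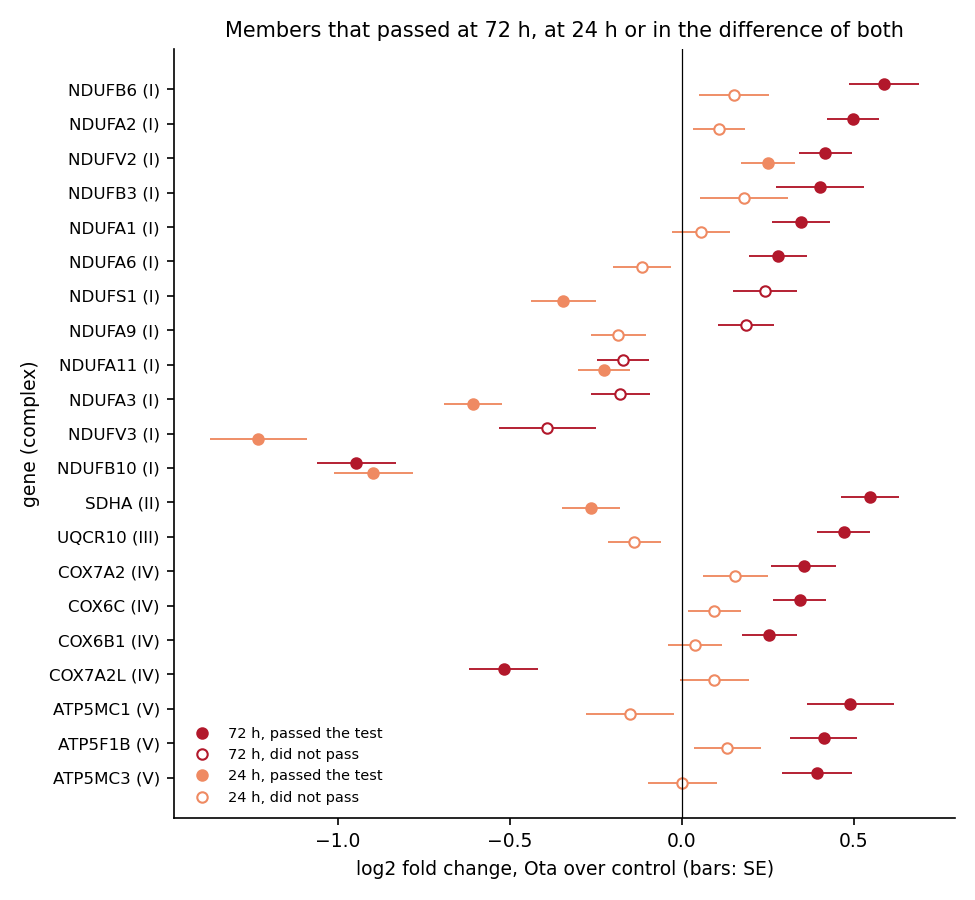
Log2 fold change of Ota over control at 72 h and at 24 h (horizontal axis, bars are the SE of the fit) for the members called at either time or in the difference of both, genes down the page. NDUFB10 lies left of 0 at both times (-0.95 at 72 h, -0.90 at 24 h) and SDHA lies on opposite sides of 0 (0.55 at 72 h, -0.26 at 24 h).

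Complex I, the NADH dehydrogenase, had the most members tested, 32 of 70, and the most calls. At 72 h 6 were higher (18.8%) and 1 lower (3.12%), where 17.1% and 14.9% of all genes tested were. At 24 h 1 was higher (3.12%) and 5 lower (15.6%), where 9.44% and 21.6% of all genes tested were. The medians were 0.11 at 72 h and -0.04 at 24 h. NDUFB10, an accessory subunit of the membrane arm, was lower with Ota at both times. At 72 h it measured 9.54, 9.55 and 9.44 in Ota cells, against 10.38, 10.61 and 10.38 in control cells (log2 values). At 24 h it measured 9.80, 10.19 and 9.84 in Ota cells, against 10.82, 10.93 and 10.77 in control cells. Every Ota array lay below every control array of its time. The log2 difference was -0.95 ± 0.11 at 72 h (adjusted p = 0.000146) and -0.90 ± 0.11 at 24 h (adjusted p = 0.000163), and these did not differ beyond their error (-0.05, adjusted p = 0.857). A second probe set of the gene gave -0.91 at 72 h and -0.74 at 24 h and passed at both times. NDUFB10 was the only member lower with Ota at both times, and both calls held under every alternative run.

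NDUFV3, a small accessory subunit of the NADH-oxidising arm, had the largest difference of any member at 24 h. It measured 7.04, 6.93 and 7.33 in Ota cells, against 8.37, 8.05 and 8.58 in control cells, a log2 difference of -1.23 ± 0.14 (adjusted p = 7.87e-05). At 72 h the values were 7.79, 7.93 and 7.71 in Ota cells, against 8.14, 8.19 and 8.28 in control cells, a difference of -0.39 that did not pass (adjusted p = 0.0538) although the arrays did not overlap. The responses differed by 0.84 ± 0.20 (adjusted p = 0.0135). The gene's other probe set gave -0.06 at 24 h (adjusted p = 0.733) and -0.28 at 72 h (adjusted p = 0.102), so the call rests on 1 of its probe sets. NDUFA3, another accessory subunit, was also lower at 24 h: 10.47, 10.51 and 10.39 in Ota cells, against 11.05, 11.06 and 11.08 in control cells, a difference of -0.61 ± 0.09 (adjusted p = 0.000306). At 72 h it measured 10.44, 10.17 and 10.28 in Ota cells, against 10.43, 10.52 and 10.48 in control cells, where the ranges overlapped slightly and the difference of -0.18 did not pass (adjusted p = 0.133). Control cells had fallen over the same time by 0.59 on the log2 scale (adjusted p = 0.000195), so that control arrays at 72 h lay near Ota arrays of both times.

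NDUFS1, the core subunit that carries iron-sulphur clusters of the NADH-oxidising arm, measured 10.78, 10.76 and 10.88 in Ota cells at 24 h, against 11.13, 11.08 and 11.24 in control cells. At 72 h it measured 10.81, 10.75 and 10.78 in Ota cells, against 10.44, 10.45 and 10.72 in control cells. Ota arrays lay below control at 24 h and above control at 72 h, and the Ota values barely moved between the times. The difference was -0.34 ± 0.09 at 24 h (adjusted p = 0.0158) and 0.24 at 72 h (adjusted p = 0.0692), and the responses differed by 0.59 ± 0.13 (adjusted p = 0.0106). The other probe sets of the gene disagreed at 24 h: 1 gave 0.95 and passed (adjusted p = 0.0217), 0.32, 0.32 and -0.10 in the others did not pass, and the mean of its probe sets gave 0.23.

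NDUFA2 and NDUFB6, accessory subunits of the matrix and membrane arms, were higher with Ota at 72 h. NDUFA2 measured 10.92, 10.97 and 10.82 in Ota cells at 72 h, against 10.42, 10.42 and 10.38 in control cells, and 11.18, 11.23 and 11.17 in Ota cells at 24 h, against 11.12, 11.12 and 11.02 in control cells. The groups were apart at 72 h, with a difference of 0.50 ± 0.08 (1.41-fold, adjusted p = 0.000577), and close at 24 h (0.11, adjusted p = 0.306). NDUFB6 measured 10.70, 10.64 and 10.58 in Ota cells at 72 h, against 9.98, 10.13 and 10.05 in control cells, and 10.74, 10.77 and 10.85 in Ota cells at 24 h, against 10.57, 10.48 and 10.85 in control cells. Its difference at 72 h was 0.59 ± 0.10 (1.5-fold, adjusted p = 0.00128), and at 24 h the arrays overlapped. Both genes were lower in control cells at 72 h than at 24 h, by -0.68 for NDUFA2 and -0.58 for NDUFB6, while the change in Ota cells was -0.29 (adjusted p = 0.0133) and -0.14 (adjusted p = 0.304). NDUFV2, a core subunit of the NADH-oxidising arm, was higher with Ota at 72 h by 0.42 ± 0.08 (adjusted p = 0.00206) and at 24 h by 0.25 ± 0.08 (adjusted p = 0.0299). The other members higher at 72 h were NDUFA1 at 0.35, NDUFB3 at 0.40 and NDUFA6 at 0.28.

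Some of these calls were lost when 1 array was left out, which also leaves fewer arrays for the test. NDUFA6 at 72 h lost its call without Ota replicate 1 or 2 or any 1 of the 3 control arrays (adjusted p between 0.0556 and 0.0882), and NDUFB3 without replicate 1 or 3 of either group (0.0849 to 0.1). At 24 h NDUFV2 lost its call without any 1 of the Ota arrays or control replicate 1 or 3 (0.0562 to 0.0844), and NDUFS1 without Ota replicate 2 (0.0542). NDUFA11, an accessory membrane-arm subunit with a difference of -0.23 ± 0.08 at 24 h (adjusted p = 0.0404), lost its call without any 1 of the Ota arrays or control replicate 1 or 2 (0.0654 to 0.0982). That call was also lost after repeated quantile normalization (0.0544), in a fit of the 24 h arrays alone (0.107) and after the array shift, which gave -0.10 (0.375). NDUFV2 at 24 h lost its call in that fit (0.0702), NDUFS1 at 24 h after the array shift (0.091), and NDUFB3 at 72 h with no filter (0.0625). The fall of NDUFA2 in Ota cells over time lost its call without Ota replicate 3 at 72 h (0.0521) and with the mean of its probe sets (0.162). At 72 h NDUFB6, NDUFA1, NDUFA2, NDUFB10 and NDUFV2 kept their calls under every alternative that tested them. NDUFA3 and NDUFB10 kept theirs at 24 h under every alternative run. NDUFA2 and NDUFB6 were left untested where other kinds of probe set were preferred to cross-matching ones. Their smallest differences at 72 h in the other alternatives were 0.16 and 0.29.

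**Figure D4:**
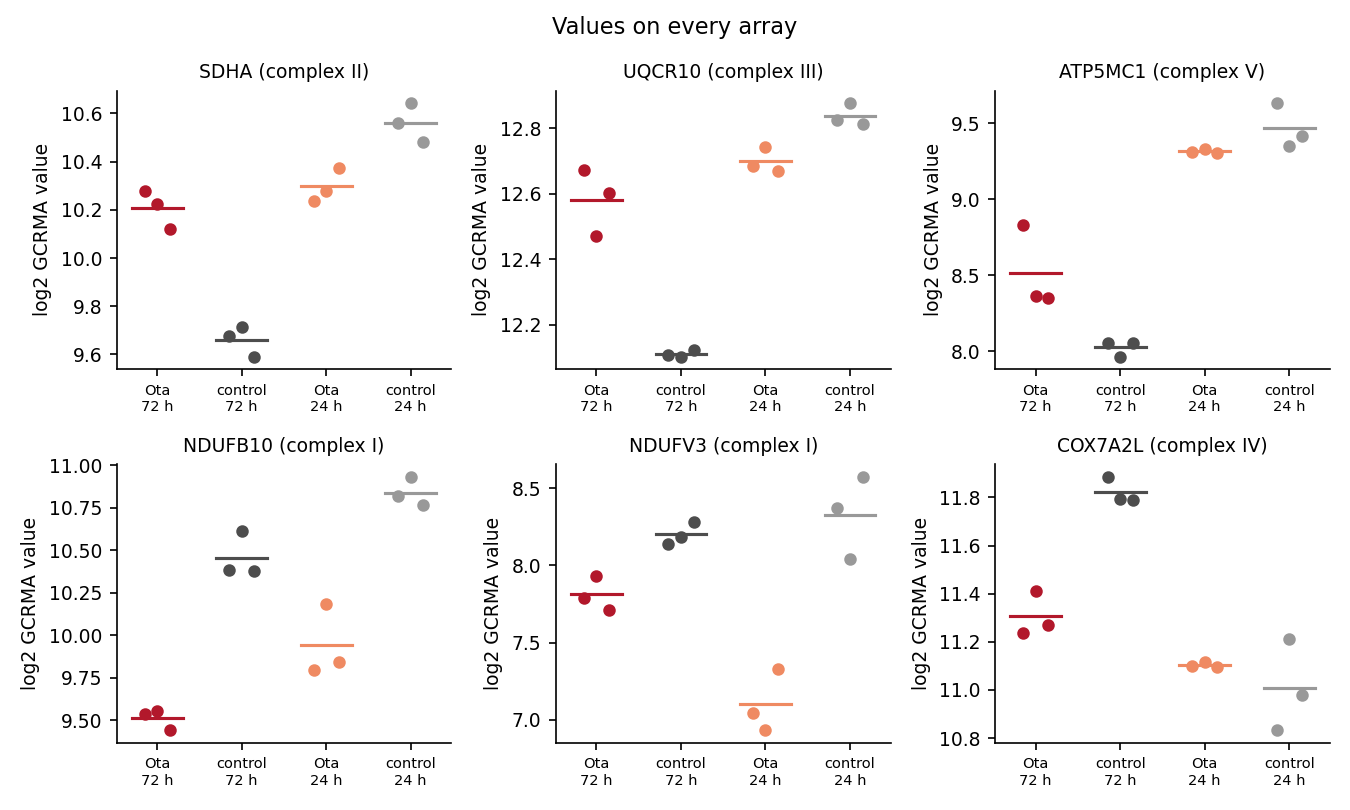
Log2 GCRMA value on every array (vertical axis) for selected members, 1 point per array, with bars for group means, for Ota at 72 h, control at 72 h, Ota at 24 h and control at 24 h. In SDHA the Ota arrays at 72 h lie between 10.12 and 10.28, and the control arrays between 9.59 and 9.71.

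Complex II, succinate dehydrogenase, is the member of the chain that is also an enzyme of the citric acid cycle, and all its subunits are nuclear. SDHA, its flavin-carrying catalytic subunit, measured 10.28, 10.22 and 10.12 in Ota cells at 72 h, against 9.68, 9.71 and 9.59 in control cells. At 24 h it measured 10.24, 10.28 and 10.37 in Ota cells, against 10.56, 10.64 and 10.48 in control cells. Ota arrays lay above control at 72 h and below control at 24 h, with no overlap at either time. The difference was 0.55 ± 0.08 at 72 h (1.46-fold, adjusted p = 0.00062) and -0.26 ± 0.08 at 24 h (adjusted p = 0.0324). The responses differed by 0.81 ± 0.12 (adjusted p = 0.00122), with the smallest adjusted p of any member. In control cells SDHA fell by 0.90 on the log2 scale between the times (adjusted p = 8.46e-06), and in Ota cells the change was -0.09 (adjusted p = 0.442). The call at 24 h was lost without Ota replicate 1 or 2 or control replicate 1 or 2 (adjusted p = 0.103, 0.085, 0.074 and 0.0887). It was also lost after repeated quantile normalization (0.0524), in a fit of the 24 h arrays alone (0.0897) and after the array shift, which gave -0.14 (0.254). The probe set is of a kind whose probes can match related sequences, and SDHA has near-identical pseudogenes, so its values may include them.

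SDHC, a membrane anchor of complex II, measured 11.11, 10.90 and 10.95 in Ota cells at 72 h, against 10.87, 10.80 and 10.80 in control cells, and 11.31, 11.21 and 11.05 in Ota cells at 24 h, against 11.41, 11.34 and 11.35 in control cells. The groups lay close at both times, and neither difference passed (0.16, adjusted p = 0.194 at 72 h; -0.17, adjusted p = 0.169 at 24 h), while SDHC fell in control cells over time by 0.54 on the log2 scale (adjusted p = 0.0005). The 6 SDHC probe sets above the filter disagreed: at 72 h 2 were higher with Ota, by 0.90 and 1.07, and at 24 h 1 was higher by 1.37 and 1 lower (-0.36). The one higher at both times rose in control cells over time, by 0.39 (adjusted p = 0.026). SDHD, the other anchor, measured 11.38, 11.32 and 11.35 in Ota cells at 72 h, against 11.06, 11.20 and 11.08 in control cells, and 11.18, 11.35 and 11.38 in Ota cells at 24 h, against 11.28, 10.82 and 11.40 in control cells. Its arrays did not overlap at 72 h, but the spread at 24 h was wide and neither difference passed (0.24, adjusted p = 0.196 at 72 h; 0.14, adjusted p = 0.471 at 24 h). SDHB was not analysed here.

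Complex III, the cytochrome bc1 complex, had 1 call at 72 h and none at 24 h, with medians of -0.01 and -0.11. That call, a higher one, was 16.7% of its 6 members, where 17.1% of all genes tested were higher and 14.9% lower. At 24 h 9.44% of all genes tested were higher and 21.6% lower. The member called was UQCR10, a small accessory subunit, with 12.67, 12.47 and 12.60 in Ota cells at 72 h, against 12.11, 12.10 and 12.12 in control cells. At 24 h it measured 12.69, 12.74 and 12.67 in Ota cells, against 12.82, 12.88 and 12.81 in control cells. Ota arrays were apart from control at both times, above at 72 h and below at 24 h. The difference was 0.47 ± 0.08 at 72 h (1.39-fold, adjusted p = 0.000961) and -0.14 at 24 h (adjusted p = 0.204), and the responses differed by 0.61 ± 0.11 (adjusted p = 0.00349). Control cells fell by 0.73 on the log2 scale (adjusted p = 2.13e-05), and the change in Ota cells was -0.12 (adjusted p = 0.266). A dimmer probe set of UQCR10 was higher with Ota at both times, by 1.20 at 72 h and 1.08 at 24 h, and it rose in control cells by 0.51 (adjusted p = 0.0116), opposite to the brightest.

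UQCRC1, a core subunit, measured 10.80, 10.84 and 10.73 in Ota cells at 72 h, against 10.68, 10.35 and 10.46 in control cells, and 11.25, 11.23 and 10.96 in Ota cells at 24 h, against 11.48, 11.70 and 10.96 in control cells. The last array of each group was the lowest at 24 h, and neither difference passed (0.29, adjusted p = 0.215 at 72 h; -0.23, adjusted p = 0.329 at 24 h), while its fall in control cells did (-0.88, adjusted p = 0.0013). UQCRQ, an accessory subunit, measured 12.08, 11.95 and 12.06 in Ota cells at 72 h, against 12.22, 12.15 and 12.18 in control cells, and 12.35, 12.43 and 12.36 in Ota cells at 24 h, against 12.63, 12.49 and 12.55 in control cells. It was the complex III member that fell in both time courses, by -0.35 in Ota cells (adjusted p = 0.00539) and -0.37 in control cells (adjusted p = 0.00199), and Ota arrays lay below control at both times without passing (adjusted p = 0.151 at 72 h and 0.105 at 24 h). The brightest probe sets of the remaining members, UQCRB, UQCRC2 and UQCR11, had differences between -0.07 and 0.13 at both times, none of which passed. A dimmer UQCR11 probe set was higher with Ota at both times, by 0.57 at 72 h and 0.69 at 24 h. Of the 4 UQCRB probe sets above the filter, 2 were higher with Ota at each time.

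Complex IV, cytochrome c oxidase, had 3 members higher and 1 lower at 72 h and none called at 24 h, with medians of 0.16 and 0.06. The shares at 72 h were 25% and 8.33% of 12 members, where 17.1% and 14.9% of all genes tested were higher and lower. At 24 h 9.44% of all genes tested were higher and 21.6% lower. The exception in complex IV was COX7A2L, a relative of the COX7A subunits that links complexes III and IV into supercomplexes. It measured 11.24, 11.41 and 11.27 in Ota cells at 72 h, against 11.89, 11.79 and 11.79 in control cells, and 11.10, 11.11 and 11.09 in Ota cells at 24 h, against 10.83, 11.21 and 10.98 in control cells. Ota arrays lay below control at 72 h and inside the control range at 24 h. The difference was -0.52 ± 0.10 at 72 h (adjusted p = 0.00263) and 0.09 at 24 h (adjusted p = 0.521), and the responses differed by -0.61 ± 0.14 (adjusted p = 0.0121). COX7A2L was the 1 member that rose in control cells, by 0.81 ± 0.10 (1.76-fold, adjusted p = 6.28e-05), and the change in Ota cells was 0.20 (adjusted p = 0.143).

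COX6C, a small membrane subunit, measured 12.78, 12.79 and 12.70 in Ota cells at 72 h, against 12.51, 12.42 and 12.31 in control cells, and 12.90, 12.86 and 12.89 in Ota cells at 24 h, against 12.78, 12.78 and 12.80 in control cells. It was higher at 72 h by 0.34 ± 0.08 (1.27-fold, adjusted p = 0.00617), the smallest p of the complex apart from COX7A2L, and the arrays lay apart at 24 h too without passing. COX6B1, which faces the intermembrane space, was higher at 72 h by 0.25 ± 0.08 (adjusted p = 0.0304), and that call was lost without any 1 of the Ota arrays or control replicate 1 or 3 (adjusted p between 0.0594 and 0.0983). It was also lost after repeated quantile normalization (0.0597) and after the array shift (0.0529).

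Isoform pairs of complex IV were described by whether each form was above the filter. COX4I1, the general form of subunit IV, measured 13.60, 13.75 and 13.53 in Ota cells at 72 h, against 13.34, 13.48 and 13.45 in control cells, and 13.61, 13.69 and 13.58 in Ota cells at 24 h, against 13.43, 13.46 and 13.48 in control cells. Ota arrays lay above control at both times, by 0.20 (adjusted p = 0.087) at 72 h and 0.17 (adjusted p = 0.146) at 24 h, and neither passed. COX4I2, its lung form, stayed between 3.39 and 3.61 on all 12 arrays, below the filter. COX6A1, the general form of subunit VIa, measured 13.52, 13.62 and 13.55 in Ota cells at 72 h, against 13.38, 13.38 and 13.42 in control cells, and 13.60, 13.61 and 13.48 in Ota cells at 24 h, against 13.63, 13.47 and 13.41 in control cells; the groups were apart at 72 h, where the difference of 0.17 did not pass (adjusted p = 0.144). COX6A2, the heart and muscle form, stayed between 6.15 and 6.29 on all arrays, above the filter but with no difference that passed. Whether so flat a signal is expression or background was not tested. COX7A2, the general form of subunit VIIa, measured 13.21, 13.17 and 13.12 in Ota cells at 72 h, against 12.70, 12.93 and 12.80 in control cells, and 13.30, 13.29 and 13.28 in Ota cells at 24 h, against 13.17, 12.98 and 13.27 in control cells. It was higher at 72 h by 0.35 ± 0.09 (1.28-fold, adjusted p = 0.0141), a call lost without Ota replicate 1 (adjusted p = 0.0529) or control replicate 1 (0.0604). COX7A1, the muscle form, stayed between 2.13 and 2.17 on all arrays, below the filter.

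Complex V, the ATP synthase, had 3 members higher at 72 h and none lower, and none called at 24 h, with medians of 0.04 and -0.02. The share higher at 72 h was 17.6% of 17 members, near the 17.1% of all genes tested, of which 14.9% were lower. At 24 h 9.44% of all genes tested were higher and 21.6% lower. The rotor ring of the enzyme is built from subunit c, whose identical mature protein is made from 3 genes. ATP5MC1 measured 8.83, 8.36 and 8.35 in Ota cells at 72 h, against 8.06, 7.96 and 8.05 in control cells, and 9.31, 9.33 and 9.31 in Ota cells at 24 h, against 9.63, 9.35 and 9.41 in control cells. It was higher with Ota at 72 h by 0.49 ± 0.13 (1.4-fold, adjusted p = 0.0126), where 1 Ota array lay above the other 2, and the difference at 24 h was -0.15 (adjusted p = 0.408). Its fall over time was the largest of any member, -1.44 ± 0.13 in control cells (0.368-fold, adjusted p = 5.85e-06) and -0.80 ± 0.13 in Ota cells (adjusted p = 0.000934), and the responses differed by 0.64 ± 0.18 (adjusted p = 0.0265). ATP5MC3 measured 12.77, 12.77 and 12.60 in Ota cells at 72 h, against 12.39, 12.30 and 12.27 in control cells, and 13.17, 13.16 and 13.03 in Ota cells at 24 h, against 13.06, 13.31 and 12.98 in control cells. It was higher at 72 h by 0.39 ± 0.10 (1.31-fold, adjusted p = 0.0122) with no difference at 24 h beyond the spread (adjusted p = 0.99), and it fell over time by -0.80 in control cells and -0.40 in Ota cells. ATP5MC2 did not follow the other two: it measured 12.29, 12.41 and 12.02 in Ota cells at 72 h, against 12.63, 12.49 and 12.46 in control cells, and 12.43, 12.35 and 12.18 in Ota cells at 24 h, against 12.28, 12.52 and 12.04 in control cells. Its arrays at 72 h lay below control without passing (-0.29, adjusted p = 0.13), and its change over time passed in neither control cells (0.25, adjusted p = 0.158) nor Ota cells (-0.08, adjusted p = 0.679). Whether the 3 genes differed from each other was not tested.

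ATP5F1B, the catalytic beta subunit, measured 12.75, 12.79 and 12.65 in Ota cells at 72 h, against 12.40, 12.28 and 12.26 in control cells, and 12.93, 12.85 and 12.73 in Ota cells at 24 h, against 12.74, 12.83 and 12.54 in control cells. It was higher at 72 h by 0.41 ± 0.10 (1.33-fold, adjusted p = 0.00773), and the arrays overlapped at 24 h. The members with the smallest p in complex V at 24 h did not pass. ATP5PF, a stalk subunit, had 12.75, 12.74 and 12.80 in Ota cells, against 12.54, 12.38 and 12.74 in control cells at 24 h (0.21, adjusted p = 0.139), and 12.63, 12.44 and 12.48 in Ota cells, against 12.29, 12.24 and 12.24 in control cells at 72 h (0.26, adjusted p = 0.0672). ATP5F1C, the gamma subunit that turns inside the catalytic head, had 12.89, 13.05 and 13.11 in Ota cells, against 12.67, 12.97 and 12.83 in control cells at 24 h (0.20, adjusted p = 0.142), and 12.94, 12.97 and 13.02 in Ota cells, against 12.70, 12.79 and 12.70 in control cells at 72 h. Ota arrays of ATP5PF and ATP5F1C lay above control at 72 h. ATP5IF1, an inhibitor of the enzyme that the name rule counts with its subunits, had 10.83, 10.99 and 11.04 in Ota cells, against 11.15, 11.04 and 11.34 in control cells at 24 h (-0.22, adjusted p = 0.141), and 10.86, 10.92 and 10.84 in Ota cells, against 10.73, 11.04 and 10.94 in control cells at 72 h, where the arrays overlapped.

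The array often carries several probe sets for a gene, and those of the respiratory chain did not always move together. Among the 28 members with more than 1 probe set above the filter, 14 had calls in some but not all of their probe sets at 24 h and 12 at 72 h, and 2 had calls in opposite directions at 24 h and 0 at 72 h. Such disagreement was not counted over all genes, so these counts have no background beside them. In a fit over all 19460 probe sets above the filter, the 47 dimmer probe sets of members were higher with Ota in a larger share than the brightest ones used above. At 72 h, 18 of the 47 (38.3%) were higher and 1 was lower, where 18% and 10.3% of the 8761 dimmer probe sets of all genes were. At 24 h, 12 of the 47 (25.5%) were higher and 4 lower, where 16.4% and 16.6% of the dimmer probe sets of all genes were. The brightest probe sets of the 70 members in the same fit gave 14 higher and 2 lower at 72 h, and 1 higher and 5 lower at 24 h. In control cells between the times 7 of the 47 (14.9%) were lower and 6 higher, where 17.6% and 19.7% of the dimmer probe sets of all genes were. Of the brightest 70, 37 (52.9%) were lower, where 22.7% of the brightest probe sets of all genes were. The broad fall in control cells was counted in the brightest probe set of each gene and was not matched by the dimmer ones.

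Some dimmer probe sets differed with Ota, mostly in genes whose brightest probe set lay near 0. A probe set of UQCRB, a ubiquinone-binding subunit of complex III, measured 6.32, 6.65 and 5.91 in Ota cells at 72 h, against 4.11, 4.10 and 3.04 in control cells, and 7.25, 7.61 and 6.96 in Ota cells at 24 h, against 2.48, 2.48 and 2.38 in control cells. Its control values sit at the floor at 24 h and near the filter at 72 h, so the fitted differences, 2.54 at 72 h and 4.83 at 24 h, have an uncertain size; the brightest UQCRB probe set gave -0.06 at 72 h and -0.07 at 24 h. A probe set of COX7B, a small membrane subunit of complex IV, measured 10.64, 10.60 and 10.50 in Ota cells at 72 h, against 8.74, 8.84 and 8.79 in control cells, and 10.44, 10.40 and 10.57 in Ota cells at 24 h, against 8.29, 7.85 and 8.50 in control cells. It was higher by 1.79 ± 0.14 (3.45-fold) at 72 h and 2.26 ± 0.14 (4.78-fold) at 24 h, well above the floor, while the gene's brightest probe set gave 0.07 and -0.09. Dim probe sets of COX4I1 and ATP5F1E, with control means between 4.29 and 4.69, were higher by 2.99 and 1.90 at 72 h and by 2.04 and 1.39 at 24 h. A dimmer probe set of ATP5MC3, whose brightest was called at 72 h, was higher by 1.63 at 72 h and 1.69 at 24 h, while dimmer ones of COX5A and NDUFB2 passed at 72 h (1.54 and 1.32) and not at 24 h. For ATP5MJ, a small membrane subunit of ATP synthase, a probe set within a bright range measured 11.58, 11.66 and 11.55 in Ota cells at 72 h, against 11.10, 11.13 and 11.03 in control cells, and 11.53, 11.66 and 11.58 in Ota cells at 24 h, against 10.65, 10.72 and 10.71 in control cells. These probe sets were picked after their values were seen, and the transcripts they match were not examined.

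**Figure D5:**
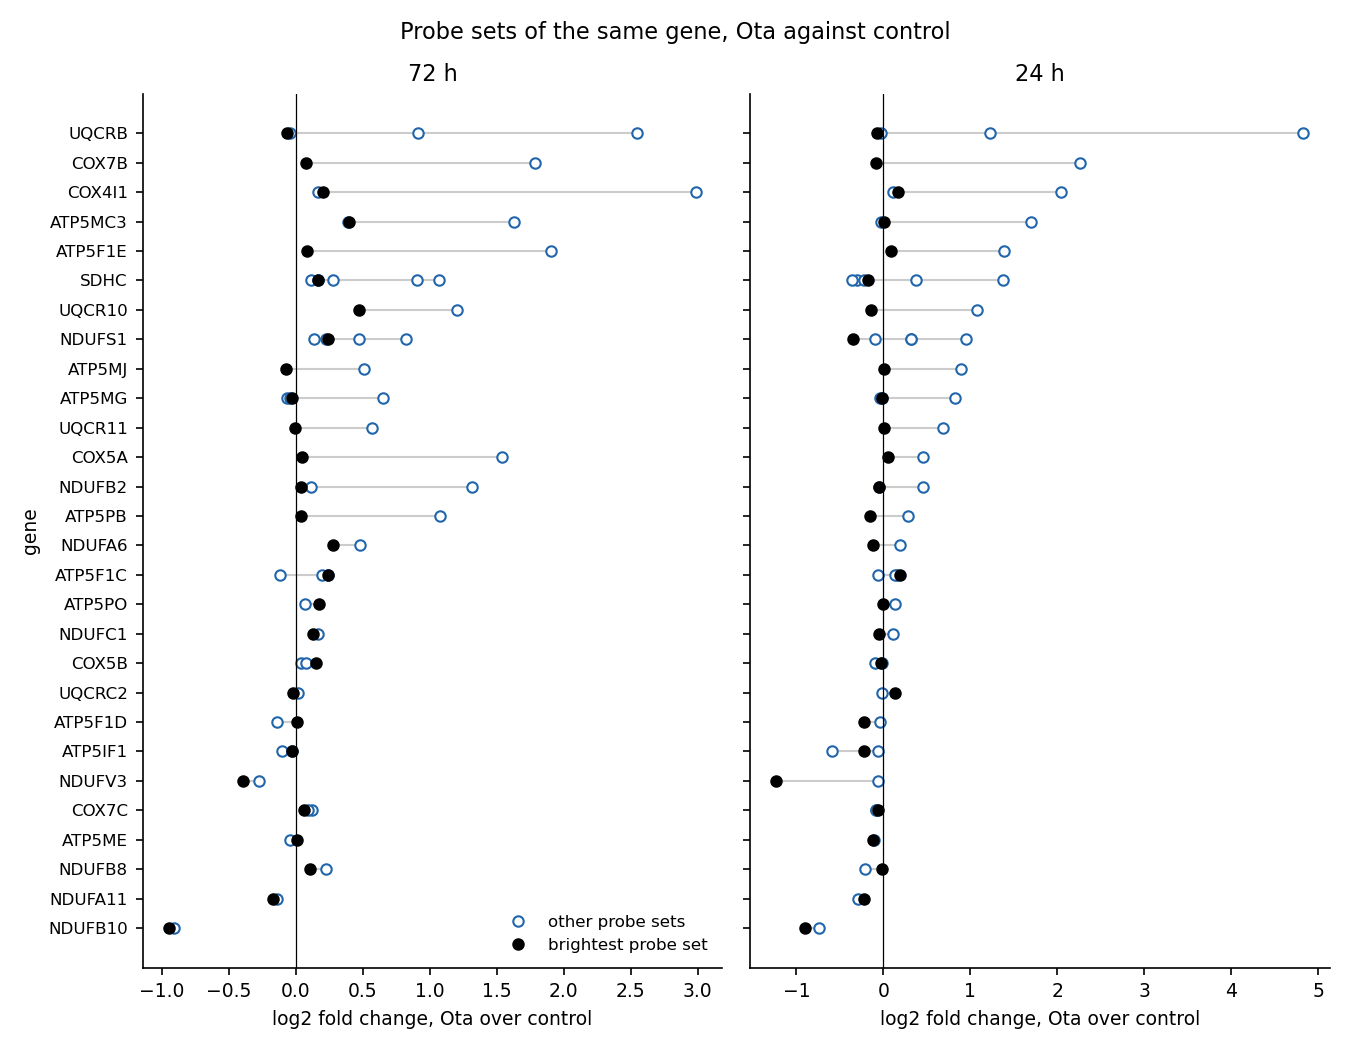
Log2 fold change of Ota over control (horizontal axis) for every probe set above the filter of members with more than 1, at 72 h (left) and 24 h (right), genes down the page, with the brightest probe set of each gene marked apart from the others. Most brightest probe sets lie near 0, while dimmer ones of COX4I1 and COX7B reach 2.99 and 1.79 at 72 h, and the farthest UQCRB point has an uncertain size at both times because its control values are low.

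Other genes of the pathway were read from lists in the same fit, each count being set against the shares of all genes tested. With Ota those shares were 17.1% higher and 14.9% lower at 72 h, and 9.44% and 21.6% at 24 h. The difference of the responses passed as positive for 15.5% and as negative for 5.79%. Over time 22.2% rose and 9.99% fell in Ota cells, and 22.7% rose and 23.6% fell in control cells. Of 49 assembly factors tested, which build the complexes without staying in them, 5 were higher and 5 lower with Ota at 72 h, and 4 were higher and 20 lower at 24 h, with medians of -0.02 and -0.16. At 24 h the smallest p-values were those of NDUFAF3 (-2.00) and ACAD9 (-1.32), which serve complex I, and COA1 (-1.20), and at 72 h those of NDUFAF5 (0.92), also for complex I, SURF1 (-1.40), for complex IV, and UQCC1 (1.00), for complex III. NDUFAF3 was lower at both times, at 72 h by -1.15. The difference of the responses passed for 13 assembly factors, all positive. Over time, in Ota cells 12 were higher and 4 lower at 72 h than at 24 h, while in control cells 2 were higher and 9 lower. Assembly factors and subunits were not tested against each other.

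Mitochondrially encoded subunits had 7 genes tested, of which 0 were called at 72 h and 1 at 24 h (ND6, higher by 0.44). In control cells over time none was called, with a median change of -0.18, and in Ota cells 1 was lower, with a median change of -0.25. Their median log2 levels were high, 15.10 in Ota cells and 14.90 in control cells at 72 h, and 15.29 and 15.20 at 24 h. The nuclear genes that the name rule leaves out, cytochrome c1 (CYC1), cytochrome c (CYCS) and the acyl carrier NDUFAB1, had no call with Ota at either time, and CYC1 fell in control cells by 0.74 on the log2 scale. Of 23 regulators of mitochondrial biogenesis and transcription, 2 were higher and 1 lower at 72 h, with ESRRG at 1.34, MTERF3 at 0.55 and POLG2 at -1.34. At 24 h, 2 were higher and 7 lower, among them GABPA, the DNA-binding subunit of GABP, at 0.54, TFAM, which packages mitochondrial DNA, at -0.46 and MTERF4 at -0.82.

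The pathways that feed the chain were read the same way. Of 16 citric acid cycle and pyruvate dehydrogenase genes, 5 were higher and 1 lower at 72 h, and 2 were higher and 2 lower at 24 h. OGDH, of the oxoglutarate dehydrogenase complex, was higher by 1.39 at 72 h and 0.54 at 24 h, and the isocitrate dehydrogenase subunits split, IDH3A at 0.88 at 72 h, IDH3B at -1.81 at 72 h and -1.20 at 24 h, and IDH3G at -0.97 at 24 h. In control cells over time 6 of the 16 fell and 0 rose, and in Ota cells 5 fell and 3 rose. Of 20 genes of coenzyme Q synthesis and other electron entry, 5 were higher and 4 lower at 72 h, and 1 was higher and 7 lower at 24 h. PDSS1, which makes the tail of coenzyme Q, was higher by 1.25 at 72 h, ETFA, an electron carrier of fatty acid oxidation, by 0.51, and COQ10A was lower by -1.16 at 72 h and -2.79 at 24 h; COQ9 was at -0.68 at 24 h. Of 21 carriers and import genes, 1 was higher and 5 lower at each time, with the phosphate carrier SLC25A3 at -0.36 and the import genes TIMM9 at -0.52 and TOMM22 at -0.57 at 72 h, and TIMM50 at -1.14, TOMM22 at -0.92 and TIMM13 at -0.57 at 24 h.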

How the data were processed

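Arrays measured 54675 probe sets in 12 samples. The deposited values are log2 and come from GCRMA, a step the authors ran (per the submitters' processing notes) in a version not given in the sources used here. GCRMA models background from probe sequence and normalizes by quantiles, so low values sit on a floor and a shift of all RNA is hard to see. Symbols came from the platform annotation, updated to RefSeq GRCh38.p14 names: 41091 probe sets had 1 symbol, 1801 several and 11721 none. The 62 control probe sets were left out. Genes above log2 4 on at least 3 arrays (10699) were fitted with 1 mean per group in limma 3.58.1 (R 4.3.3, data.table version 1.17.8; lmFit, eBayes; prior degrees of freedom 3.31, residual 8), with Benjamini-Hochberg adjustment and calls below 0.05. Errors of differences are SE. The fit was tested on simulated data. Promoters and figures used Python 3.11.15 and matplotlib 3.10.9. The members and lists were chosen with earlier results of these data known. Values on every array are given for the members with the smallest p in each complex and comparison (up to 3 per Ota comparison, 2 in the difference), the SDH genes, the subunit c genes and 3 isoform pairs; probe sets shown beside them were chosen after their values were seen. Up to 3 called genes of each other list are named by smallest p. Replicate numbers are shared between groups: deviations of same-numbered Ota and control arrays correlated at 0.32 to 0.45 at 24 h and 0.07 to 0.27 at 72 h, and Ota arrays at 24 h with control arrays at 72 h at 0.23 to 0.26. Within the comparisons made, every pair exceeded 0.1 at 24 h and not in the others. Arrays have no read depth; their number limits the precision. Alternatives were the block, 2 other scalings, 2 filters, other probe set choices, only the groups compared, each replicate left out and, added after seeing the data, eBayes with trend and robust prior.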

Additional observations from a re-analysis of the deposited data

Results flagged for a closer look

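The Ota response differed between 72 h and 24 h for 10 members, by the test of the difference itself in limma (log2, 72 h minus 24 h, n = 3 arrays a group). That was 12.9% of members tested with a positive difference and 1.43% with a negative one. Of all genes tested, 15.5% and 5.79% passed, so the positive share of members was near the share of all genes. The negative share rests on 1 member. The median difference was 0.15 for members, against 0.09 for all genes tested. The difference was 0.81 for SDHA, 0.84 for NDUFV3, 0.64 for ATP5MC1, 0.61 for UQCR10, 0.59 for NDUFS1, 0.43 for NDUFA3, 0.39 for NDUFA2, 0.39 for NDUFA6, 0.37 for NDUFA9 and -0.61 for COX7A2L. In SDHA the 3 Ota arrays lay above all 3 control arrays at 72 h and below all 3 at 24 h. SDHA and COX7A2L kept the call under every alternative run. The other 8 lost it under at least 1. After the array shift NDUFA2, NDUFA3, NDUFA6, NDUFA9 and ATP5MC1 lost it (adjusted p = 0.15, 0.119, 0.159, 0.182 and 0.0578). With the mean of the probe sets NDUFA2 (0.12, adjusted p = 0.288) and NDUFA6 (0.34, adjusted p = 0.0504) lost it. The other NDUFA6 probe set gave 0.29 (adjusted p = 0.246). After repeated quantile normalization NDUFA3 and NDUFA9 lost it (0.051 and 0.0621), and with no filter ATP5MC1 did (0.0551). NDUFA6 lost it without Ota replicate 1 or 2 or any control replicate at 72 h, or without Ota replicate 1 or control replicate 3 at 24 h (adjusted p between 0.059 and 0.087). NDUFA9 lost it without Ota replicate 1 or 2 or control replicate 1 or 3 at 72 h, or without replicate 1 or 3 of either group at 24 h (0.0632 to 0.0948). NDUFA2 lost it without Ota replicate 1 or 2 or control replicate 3 at 72 h, or without replicate 1 of either group at 24 h (0.051 to 0.0563). NDUFA3 lost it without Ota replicate 1 or control replicate 1 or 3 at 72 h, or without Ota replicate 3 at 24 h (0.0517 to 0.0669). ATP5MC1 lost it without control replicate 2 at 72 h or replicate 1 of either group at 24 h (0.0524 to 0.0627). For NDUFS1, NDUFV3 and UQCR10 the call depended on which probe set stood for the gene.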

How the results depend on the processing

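Counts of called members kept within 1.5 times of the reported count except as follows. At 24 h, 7 members became 12 after shifting arrays to 1 median (9 higher, 3 lower) and 16 when probe sets were averaged per gene (9 higher, 7 lower). They became 12 when other kinds of probe set were preferred to cross-matching ones (8 higher, 4 lower, of 59 tested). In a fit of the 24 h arrays alone they became 4. At 72 h, 16 became 32 with the mean of the probe sets (29 higher). The difference gave 5 under the array shift, in place of 10. Ota cells over time gave 35 under the shift and 23 with trend and robust prior (added after seeing the data), in place of 14. The control time course gave 33 to 45, against 39. With the replicate block the counts were 24 (18 higher, 6 lower) at 72 h, 7 at 24 h, 14 for the difference, 15 for Ota cells over time and 41 for control cells over time, none past 1.5 times the reported count. Leaving out 1 array at a time gave 12 to 15 at 72 h, 3 to 12 at 24 h, 6 to 12 for the difference, 8 to 15 for Ota cells and 33 to 39 for control cells. The single-gene calls that held in every setting that tested the gene were 21 of 39 in control cells over time and 4 of 14 in Ota cells. For Ota against control they were 12 of 16 at 72 h, 2 of 7 at 24 h and 2 of 10 in the difference. Under the array shift medians by complex moved: Ota at 24 h I 0.082, II -0.050, III 0.018, IV 0.18, V 0.11, and for the difference I 0.022, II 0.19, III -0.13, IV 9.7e-05, V -0.011, and for Ota cells over time I -0.21, II -0.22, III -0.30, IV -0.20, V -0.29. With the mean of the probe sets medians by complex moved: Ota at 72 h II 0.38, III 0.29, IV 0.29, V 0.14, and for Ota at 24 h I 0.026, II 0.071, III 0.24, and for control cells over time I -0.20, II -0.33, III -0.10, IV -0.083, V -0.16. With other kinds preferred to cross-matching probe sets, medians of Ota at 72 h moved to II 0.55, III 0.43, IV 0.25 and V 0.22. For Ota at 24 h they moved to II 0.14 and III 0.34, and for the difference to II 0.10. For Ota cells over time they moved to III -0.015 and IV -0.0092. For control cells over time they moved to I -0.20, II -0.052, III 0.031 and IV -0.11. With no filter medians by complex moved: Ota at 72 h IV 0.061, and for the difference IV 0.049, and for control cells over time IV -0.058. With 1 array left out medians ranged as follows: Ota at 72 h I 0.089 to 0.16, II 0.21 to 0.28, III -0.046 to 0.044, IV 0.12 to 0.19, V 0.021 to 0.12, and for Ota at 24 h I -0.071 to -0.041, II -0.23 to -0.11, III -0.12 to -0.075, IV 0.022 to 0.073, V -0.061 to -0.024, and for the difference I 0.14 to 0.22, II 0.27 to 0.40, III -0.015 to 0.053, IV 0.12 to 0.14, V 0.092 to 0.18, and for Ota cells over time I -0.12 to -0.066, II -0.13 to -0.046, III -0.20 to -0.12, IV -0.095 to -0.044, V -0.19 to -0.13, and for control cells over time I -0.40 to -0.28, II -0.56 to -0.52, III -0.32 to -0.27, IV -0.22 to -0.19, V -0.34 to -0.23. Directions turned with the probe set chosen: NDUFS1 at 24 h gave 0.23 (mean) and 0.95, 0.32 and 0.32 in 3 probe sets, -0.47 and -0.19 in the difference and 0.26 and 0.12 in control cells; NDUFV3 gave -0.21 in the difference and -0.24 in Ota cells over time; in control cells SDHC gave 0.39, UQCR10 0.51, COX7B 0.58, ATP5MC3 0.033 and ATP5MG 0.32; in Ota cells COX7B gave 0.11 and ATP5MG 0.14. The cause was not tested.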
